A study of Medicago sativa with 3 samples.

Results

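Auxin is the plant hormone that steers shoot and root growth, branching and the regrowth of organs after tissue is lost. It enters cells through influx carriers of the AUX1/LAX family, leaves them through PIN efflux carriers placed on one side of the cell, and is sensed by F-box proteins of the TIR1/AFB family, which bind it together with Aux/IAA repressors and send those repressors to be degraded. The auxin response factors (ARFs) that the repressors had held back then act on early response genes, among them the SAUR genes and the GH3 enzymes that tie auxin to amino acids.

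The transcripts described here are the 333 of 95646 assembled transcripts whose best protein match in the Nr database is named for auxin, SAUR, indole-3-acetic acid or GH3 and whose protein and nucleotide matches both name a legume. This rule uses the names alone and no measured value. Legume-matched transcripts numbered 52669 in all. The names were checked against other annotations in the same table. Of the 333 transcripts, 282 had a Swiss-Prot match and 272 of these matches named auxin, 199 had a KEGG orthology definition and 187 of these named an auxin family. A Gene Ontology process that names auxin was given to 163 of the 333 (48.9%), against 756 of the 52336 other legume-matched transcripts (1.44%). The 10 Swiss-Prot exceptions included 3 transcripts named response factor whose Swiss-Prot match is a YUCCA flavin monooxygenase (an auxin synthesis enzyme), 1 named response factor that matches the corepressor LEUNIG, 1 named for a GH3 enzyme that matches JAR1, which conjugates jasmonic acid, 1 named conjugate hydrolase that matches delta-aminolevulinic acid dehydratase, a chlorophyll and heme synthesis enzyme, and a pair named 5NG4 that match a zinc finger protein. They were kept, since the names set the membership.

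The study set plants of alfalfa (Medicago sativa ssp. falcata) picked for withstanding grazing against plants of the same cultivar picked for poor recovery from it, and had 3 RNA-seq libraries. The intolerant grazed library came from the population MF200402 under sheep grazing, the tolerant grazed library from the population MF200401 under the same grazing, and the tolerant ungrazed library from MF200401 in a separate ungrazed block, whose shoots were cut back to a similar height when the sheep were taken off. Each library came from 1 pool of leaf, stem and root RNA over the plants of a population, taken some days after grazing ended. There were no replicates, so nothing could be tested against the spread between plants or pools, and grazing cannot be told apart from the block or from the manner in which shoots were removed. Fewer cells of a type and less RNA per cell cannot be told apart in such pools either.

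The libraries, called by their pools below, held 22.3 to 22.8 mega-fragments assigned to single transcripts. The auxin transcripts took 0.470% of the fragments in the intolerant grazed pool, 0.458% in the tolerant grazed pool and 0.448% in the tolerant ungrazed pool. Marker transcripts were listed by name alone. Any name with nodulin or leghemoglobin was taken for root nodules, and any with cellulose synthase, laccase or irregular xylem for secondary wall and vascular tissue. Such names can take in genes that are not limited to the tissue. Summed FPKM (fragments per kilobase of transcript, scaled to the fragments of the whole library) of marker transcripts differed among the pools. It was 25049 for 22 green tissue transcripts in the intolerant grazed pool, 10880 in the tolerant grazed pool and 10037 in the tolerant ungrazed pool, and it was 1035, 922 and 1896 for 43 root nodule transcripts in the same order of pools. It was 1584, 1245 and 2110 for 28 transcripts of dividing cells, 939, 857 and 731 for 109 of secondary wall and vascular tissue, and 546, 494 and 535 for 28 of taproot storage. No transcript of these lists was at 0 in all 3 pools, and the green tissue and taproot storage lists had none at 0 in any. The part of these differences in the values below was not tested.

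Of the 333 auxin transcripts, 316 had at least 20 fragments over the 3 pools and were compared. A transcript is called higher or lower where its log2 ratio of FPKM was at least 1 in absolute value, which is a description of a pair of libraries and not a test. Where an interval follows a log2 ratio, it is an exact Clopper-Pearson 95% interval from the fragments and covers counting error only. The comparisons share the tolerant grazed pool, so they are not independent of each other.

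Grazing of the tolerant population went with more auxin transcripts on the higher side than on the lower. In the tolerant grazed pool 65 of 316 (20.6%) were higher and 23 (7.28%) lower than in the tolerant ungrazed pool, beside 14.0% higher and 7.48% lower among the 48771 legume-matched transcripts with at least 20 fragments. For 53 of the 65 and 20 of the 23 the interval left out 0. The median log2 ratio was 0.36 over the auxin transcripts and 0.11 over the legume-matched transcripts. Over all 75643 transcripts with at least 20 fragments, legume-matched or not, 15.3% were higher and 16.1% lower. Among transcripts with at least 100 fragments, 32 of 202 auxin transcripts were higher and 5 lower, and the background was 9.11% higher and 5.23% lower.

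Between the grazed populations the share of auxin transcripts on the higher side lay close to the background. In the intolerant grazed pool 63 of 316 (19.9%) were higher and 26 (8.23%) lower than in the tolerant grazed pool, beside 20.4% higher and 12.2% lower among legume-matched transcripts. Over all transcripts 21.9% were higher and 18.9% lower. Among transcripts with at least 100 fragments, 27 of 202 auxin transcripts were higher and 13 lower, and the legume-matched background was 14.6% higher and 9.68% lower. The median was 0.27 for both sets with at least 20 fragments. Scaling each pool by its median ratio moved all log2 ratios of this comparison down by 0.26, and then 45 auxin transcripts were higher and 42 lower. The same scaling moved the ratios of tolerant grazed against tolerant ungrazed down by 0.09.

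Taking each transcript through both comparisons, 14 were higher in the tolerant grazed pool than in the ungrazed one and higher again in the intolerant grazed pool, and 3 were lower both times. Another 6 were higher in the tolerant grazed pool than in either other pool, and 9 were lower there than in either. These patterns were not counted among the legume-matched transcripts, so the counts show nothing particular to the auxin transcripts. Counting error in the shared tolerant grazed pool also moves the 2 ratios of a transcript in opposite directions.

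**Figure D1:**
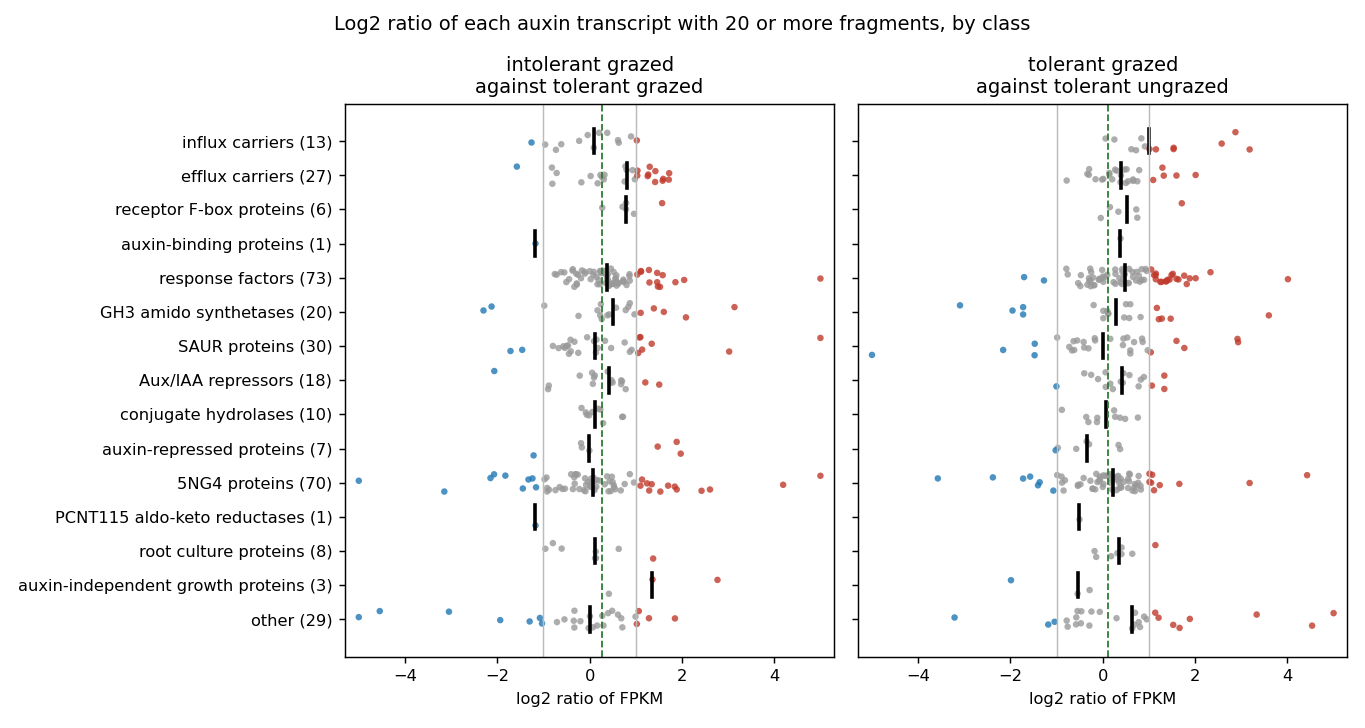
Log2 ratio of FPKM of each auxin transcript with at least 20 fragments, by class (number of transcripts in parentheses), for intolerant grazed against tolerant grazed on the left and tolerant grazed against tolerant ungrazed on the right. Points are transcripts (red higher, blue lower, grey neither, at the grey lines of 1 and -1), black bars are class medians and the dashed green line is the median of all legume-matched transcripts (0.27 on the left, 0.11 on the right); 5 and 2 transcripts past the limit of 5 are drawn at it, and the influx carriers on the right all lie above 0.

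The influx carriers were the class with the highest share of calls under grazing of the tolerant population among classes of at least 5 transcripts. Their summed FPKM was 149 in the intolerant grazed pool, 160 in the tolerant grazed pool and 79.1 in the tolerant ungrazed pool. All 13 transcripts had a positive log2 ratio of tolerant grazed against tolerant ungrazed, and 7 of the 13 (53.8%) were higher and none lower, with a median of 1.01. In the same comparison 33 of 98 (33.7%) secondary wall and vascular markers were higher and 9 (9.18%) lower. The part of these markers in the influx carrier values was not tested. The count of 7 became 6 under median-ratio scaling and 8 under TPM, which rescales the FPKM of every library to 1 common total. Between the grazed populations 1 was higher and 1 lower, beside 20.4% and 12.2% of legume-matched transcripts. The median of 0.09 turned negative under median-ratio scaling (-0.17) and under TPM (-0.0031).

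Within the influx carriers the levels differed by family member, as given by the Swiss-Prot match to the LAX proteins of Medicago truncatula. The summed level of the pair matched to LAX5 differed most under grazing of the tolerant population. Unigene6730_All was at 11.0 FPKM in the intolerant grazed pool, 11.3 in the tolerant grazed pool and 1.54 in the tolerant ungrazed pool, a log2 ratio of tolerant grazed against ungrazed of 2.87 (2.23 to 3.59). CL4449.Contig3_All was at 7.02, 4.58 and 0.769 FPKM in the same order, with a log2 ratio of 2.58 (1.68 to 3.59). Both grazed pools were thus well above the ungrazed one for LAX5, and the grazed populations lay within 0.61 of each other on the log2 scale.

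LAX3 was matched by 4 transcripts, all of them also assigned to the locus MTR_3g072870. Their summed FPKM was 46.1 in the intolerant grazed pool, 36.4 in the tolerant grazed pool and 15.4 in the tolerant ungrazed pool, and 3 of the 4 were higher in the tolerant grazed pool than in the ungrazed one. CL4449.Contig7_All had 16.6, 15.6 and 5.38 FPKM and a log2 ratio of tolerant grazed against ungrazed of 1.53 (1.19 to 1.89). Like LAX5, it was low in the ungrazed pool alone.

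LAX4 followed another order. Its 3 transcripts summed to 17.3 FPKM in the intolerant grazed pool, 35.9 in the tolerant grazed pool and 16.6 in the tolerant ungrazed pool, so that only the tolerant grazed pool was high. CL4449.Contig4_All had 6.86, 16.4 and 5.66 FPKM, with a log2 ratio of -1.26 (-1.73 to -0.81) for intolerant grazed against tolerant grazed and of 1.54 (1.06 to 2.04) for tolerant grazed against ungrazed. The most abundant influx carrier was the LAX2 match CL4449.Contig6_All, at 47.5, 55.6 and 31.1 FPKM, and its log2 ratio of tolerant grazed against ungrazed was 0.84 (0.75 to 0.92), under the threshold. The 3 LAX1 matches summed to 19.6, 16.4 and 13.6 FPKM, and 1 of them, with few fragments, was called. The most abundant LAX1 match, Unigene21314_All, had 15.5, 13.5 and 11.3 FPKM, with a log2 ratio of tolerant grazed against ungrazed of 0.25 (0.03 to 0.47). Contigs 1 to 7 of the cluster CL4449 match different LAX proteins and share sequence, so a fragment common to them could have been lost or placed on one of them.

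AXR4, which in Arabidopsis is needed to bring AUX1 to the cell surface, was named by 3 transcripts. They summed to 47.2 FPKM in the intolerant grazed pool, 45.1 in the tolerant grazed pool and 24.3 in the tolerant ungrazed pool. Their log2 ratios of tolerant grazed against ungrazed ran between 0.81 and 1.21, with 1 of the 3 past the threshold, and those of intolerant grazed against tolerant grazed between -0.02 and 0.30. Like LAX5 and LAX3, they were low in the ungrazed pool alone. They were set apart as a group after their annotations and values had been seen.

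The efflux carriers differed between the populations. Their summed FPKM over 31 transcripts was 291 in the intolerant grazed pool, 147 in the tolerant grazed pool and 121 in the tolerant ungrazed pool. Of the 27 compared, 11 (40.7%) were higher and 1 lower in the intolerant grazed than in the tolerant grazed pool, with a median of 0.80, and the interval left out 0 for all 12. Under median-ratio scaling 8 of the 27 were higher and 3 lower, with the background at 14.6% higher and 16.2% lower. In tolerant grazed against tolerant ungrazed 5 of the 27 (18.5%) were higher and none lower, beside 14.0% and 7.48% of legume-matched transcripts.

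**Figure D2:**
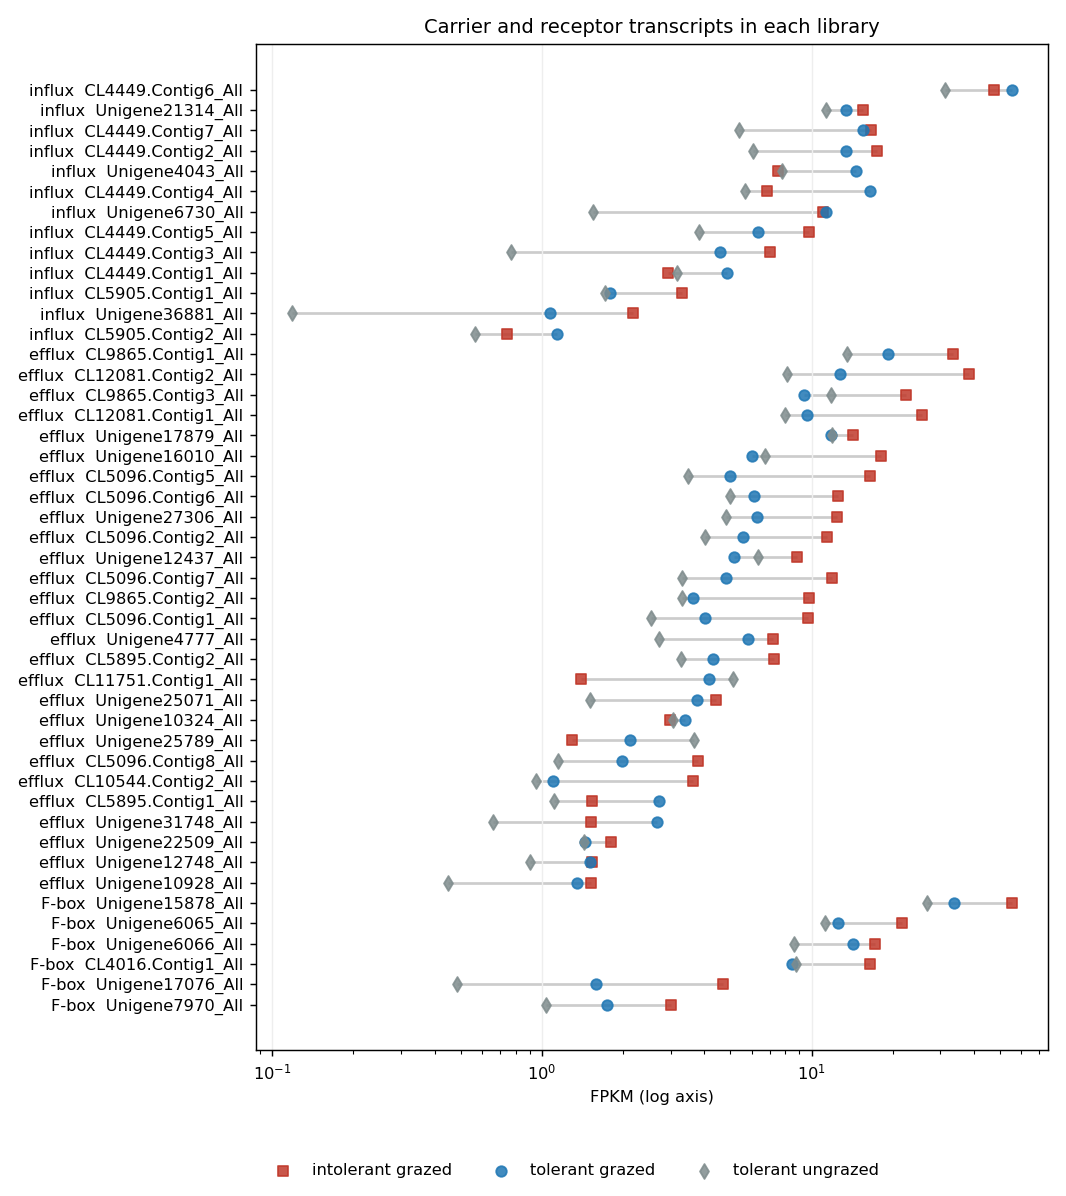
FPKM (log axis) of each influx carrier, efflux carrier and receptor F-box transcript with at least 20 fragments, ordered by mean FPKM within its class. Squares are the intolerant grazed pool, circles the tolerant grazed pool and diamonds the tolerant ungrazed pool, 1 library each; the grey line spans the 3 values, and most efflux carriers and all 6 F-box transcripts are highest in the intolerant grazed pool.

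By level, the most abundant efflux carriers in the intolerant grazed pool matched PIN3 and PIN4 proteins. CL12081.Contig2_All, a PIN4 match, had 38.5 FPKM in the intolerant grazed pool, 12.7 in the tolerant grazed pool and 8.09 in the tolerant ungrazed pool. Its log2 ratio of intolerant grazed against tolerant grazed was 1.6 (1.35 to 1.84). Unigene16010_All, a PIN3 match, had 18.1, 6.04 and 6.74 FPKM and a log2 ratio of 1.58 (1.25 to 1.93). The most abundant PIN3 match, CL9865.Contig1_All, had 33.4, 19.2 and 13.6 FPKM and stayed under the threshold at 0.80 (0.68 to 0.93). A short PIN3 match, CL9865.Contig3_All, had 22.4, 9.38 and 11.8 FPKM and a log2 ratio of 1.26 (0.76 to 1.78), which came to just under 1 with median-ratio scaling.

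A further block of 6 contigs of the cluster CL5096 matched the locus MTR_5g024970 under the name auxin efflux carrier, with no Swiss-Prot match or orthology entry to place them among the PIN proteins. Their summed FPKM was 65.8 in the intolerant grazed pool, 27.5 in the tolerant grazed pool and 19.5 in the tolerant ungrazed pool, and 5 of the 6 were higher in the intolerant grazed than in the tolerant grazed pool. CL5096.Contig5_All had 16.4, 5.0 and 3.5 FPKM, a log2 ratio of 1.72 (1.47 to 1.97). These contigs are parts of 1 cluster and do not count as 6 genes. The 24 efflux carriers that do hold the PIN orthology had 6 of 20 (30.0%) higher and 1 lower in the same comparison. Their median was 0.54, and the background was 20.4% higher and 12.2% lower with a median of 0.27.

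One efflux carrier ran the other way. CL11751.Contig1_All, matched to a probable efflux carrier component, had 1.39 FPKM in the intolerant grazed pool, 4.15 in the tolerant grazed pool and 5.12 in the tolerant ungrazed pool. Its log2 ratio of intolerant grazed against tolerant grazed was -1.58 (-2.18 to -1.0). The locus MTR_4g127100 was matched by 7 efflux carrier transcripts, which summed to 20.4, 8.73 and 10.3 FPKM over all 7, and only 3 of them had enough fragments to be compared. The green tissue markers were also highest in the intolerant grazed pool, with 8 of 22 higher and none lower than in the tolerant grazed pool. The background was 20.4% higher and 12.2% lower among legume-matched transcripts. The log2 ratio of summed FPKM was 1.2 for the green tissue markers and 0.99 for the efflux carriers. The part of these markers in the efflux carrier values was not tested.

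The F-box receptor transcripts named for auxin were likewise highest in the intolerant grazed pool. These 6 transcripts summed to 119 FPKM in the intolerant grazed pool, 72.4 in the tolerant grazed pool and 56.9 in the tolerant ungrazed pool. All 6 had a positive log2 ratio of intolerant grazed against tolerant grazed, between 0.27 and 1.57, and 1 (16.7%) passed the threshold. The legume-matched background had a larger share past it on that side (20.4%) and a median of 0.27, which the lowest of the 6 only matched. Median-ratio scaling brought that lowest ratio to 0.01 and the class median from 0.79 to 0.53. It brought the log2 ratio of the class sums from 0.71 to 0.45, and 1 transcript still passed. The AFB2 match Unigene15878_All, the most abundant, had 55.5, 33.9 and 26.8 FPKM and a log2 ratio of 0.71 (0.62 to 0.80). The TIR1 match Unigene6065_All had 21.6, 12.5 and 11.2 FPKM and a log2 ratio of 0.79 (0.66 to 0.93). The other TIR1 match named here, Unigene6066_All, had 17.3, 14.3 and 8.63 FPKM, with a log2 ratio of 0.27 (0.11 to 0.43) for intolerant grazed against tolerant grazed and of 0.73 (0.53 to 0.92) for tolerant grazed against ungrazed. Of the 6 transcripts, 5 matched the locus MTR_4g091290 and may be fragments of fewer genes. A further 4 transcripts carry the name of TIR1 without the word auxin and so lie outside the 333. They summed to 72.4, 55.6 and 62.5 FPKM, with none called between the grazed populations, at log2 ratios between -0.60 and 0.99, and with 1 higher and 1 lower in tolerant grazed against tolerant ungrazed. The lower one, CL3895.Contig2_All, had 13.9, 7.03 and 14.7 FPKM and a log2 ratio of -1.06 (-1.36 to -0.77), so the order of the pools differed among the TIR1 transcripts. The only auxin-binding protein, Unigene10410_All, ran against the F-box receptors, at 5.81 FPKM in the intolerant grazed pool, 13.1 in the tolerant grazed pool and 10.2 in the tolerant ungrazed pool. Its log2 ratio of intolerant grazed against tolerant grazed was -1.17 (-1.53 to -0.83).

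The response factors, the transcription factors at the end of the pathway, were the class with the most calls in tolerant grazed against tolerant ungrazed. They were also the class with the most transcripts compared. Their 75 transcripts summed to 753 FPKM in the intolerant grazed pool, 627 in the tolerant grazed pool and 502 in the tolerant ungrazed pool. Of the 73 compared, 21 (28.8%) were higher and 2 lower in the tolerant grazed than in the tolerant ungrazed pool, with a median of 0.48. In intolerant grazed against tolerant grazed 13 (17.8%) were higher and none lower, beside 20.4% higher and 12.2% lower among legume-matched transcripts, with a median of 0.38 that came to 0.12 under median-ratio scaling.

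The calls under grazing fell on some ARF proteins and not on others, as named by the Swiss-Prot match, but the summed levels did not all follow the calls. Of the 8 ARF4 matches compared, 5 were higher in the tolerant grazed than in the tolerant ungrazed pool, 4 of them with an interval that left out 0. All 9 ARF4 matches summed to 28.5 FPKM in the intolerant grazed pool, 20.2 in the tolerant grazed pool and 13.9 in the tolerant ungrazed pool. These sums rest on 301, 213 and 156 fragments. Both ARF5 matches were higher, with sums of 14.9, 11.8 and 4.04 FPKM. The ARF5 match CL12185.Contig1_All had 7.87, 6.04 and 1.64 FPKM and a log2 ratio of 1.88 (1.44 to 2.35). ARF5 is known in Arabidopsis as MONOPTEROS, which acts in vascular and organ formation. ARF3 and ARF9 had 2 of 5 higher each. The ARF3 match CL4530.Contig3_All had 5.39, 3.09 and 0.911 FPKM, with a log2 ratio of 1.76 (1.13 to 2.44). None of the 3 ARF2, 2 ARF1, 2 ARF7 and 4 ARF8 matches was called in either comparison. Their sums gave log2 ratios of tolerant grazed against ungrazed of 0.14, -0.30, 0.04 and 0.57, beside 0.54 for ARF4 and 0.56 for ARF3 and ARF9. All 4 ARF8 matches had a positive ratio, so the lack of calls did not set the summed level of ARF8 apart. The ARF2 match CL4952.Contig2_All lay at 38.9, 36.5 and 34.2 FPKM. Another contig of its cluster with an ARF2 match, CL4952.Contig4_All, lay at 39.6, 35.2 and 35.5 FPKM. The ARF9 match CL4952.Contig1_All, the most abundant response factor in the intolerant grazed pool, had 47.9, 40.2 and 25.8 FPKM, with a log2 ratio of tolerant grazed against ungrazed of 0.64 (0.48 to 0.81).

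At the level of the matched loci, MTR_2g093740 and MTR_2g094570 showed different orders. The locus MTR_2g093740 was matched by 6 response factor transcripts, of which 5 were higher in the tolerant grazed than in the tolerant ungrazed pool. They summed to 16.2 FPKM in the intolerant grazed pool, 15.1 in the tolerant grazed pool and 5.61 in the tolerant ungrazed pool, low in the ungrazed pool alone. These transcripts overlap with the ARF4 matches above, so the counts are not separate observations. The locus MTR_2g094570, matched by ARF10, ARF18 and ARF22 names, had all 4 transcripts higher in the intolerant grazed than in the tolerant grazed pool. Its sums were 21.0, 8.15 and 8.61 FPKM, high in the intolerant pool alone. Most of these transcripts had under 100 fragments in each pool, and the 4 of MTR_2g094570 together had 250, 105 and 113.

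The ARF7 and ARF19 locus MTR_4g124900 was also highest in the intolerant plants, with 60.1 FPKM in the intolerant grazed pool, 33.3 in the tolerant grazed pool and 40.3 in the tolerant ungrazed pool. The ARF19 match CL6958.Contig3_All had 9.29, 3.33 and 4.63 FPKM and a log2 ratio of intolerant grazed against tolerant grazed of 1.48 (1.18 to 1.79). One ARF6 contig, CL10705.Contig2_All, was low in the tolerant grazed pool alone, at 21.5, 9.94 and 24.0 FPKM. Its log2 ratios were 1.11 (0.97 to 1.26) for intolerant grazed against tolerant grazed and -1.27 (-1.41 to -1.14) for tolerant grazed against tolerant ungrazed, and the first came to 0.85 under median-ratio scaling, below the threshold. All 5 ARF6 matches together summed to 120, 98.6 and 84.1 FPKM, so this contig did not follow the sum of its family. Unigene15118_All, named ARF6-like with no Swiss-Prot match, was high in the intolerant grazed pool, at 17.9, 5.98 and 4.03 FPKM and a log2 ratio of 1.58 (1.21 to 1.97).

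**Figure D3:**
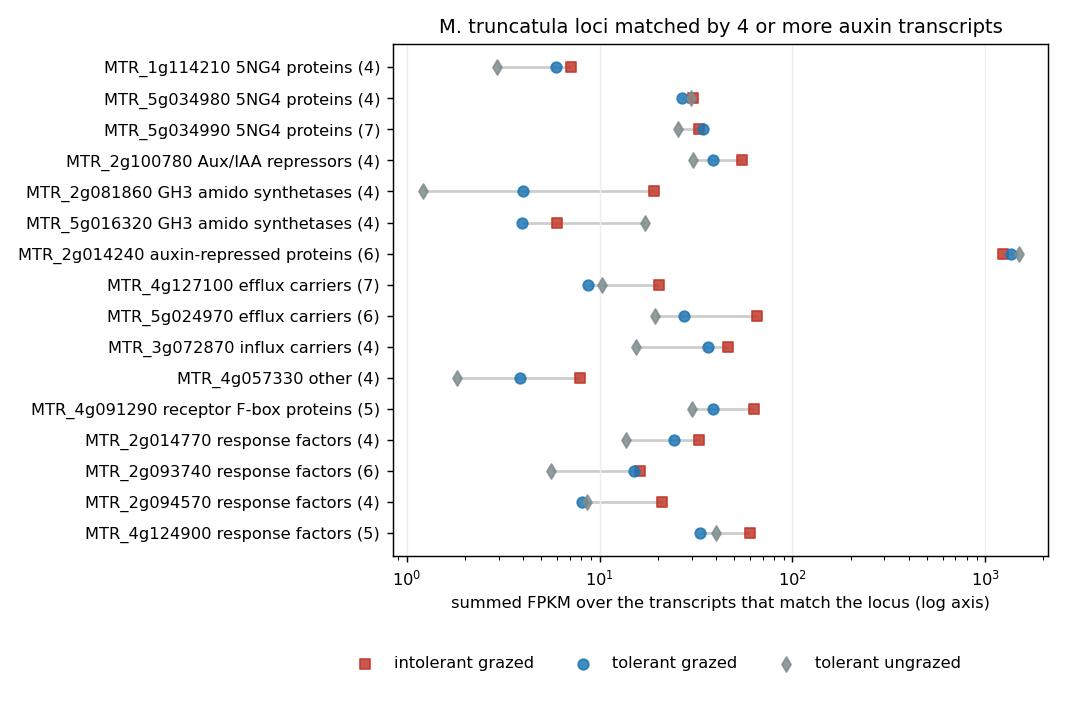
Summed FPKM (log axis) of the auxin transcripts that match each Medicago truncatula locus, for the loci with 4 or more such transcripts (number in parentheses). Squares are the intolerant grazed pool, circles the tolerant grazed pool and diamonds the tolerant ungrazed pool, 1 library each; the GH3 loci MTR_2g081860 and MTR_5g016320 run in different orders, with the tolerant ungrazed pool lowest at 1.21 FPKM for one and highest at 17.2 FPKM for the other.

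The Aux/IAA repressors were called about as often as legume-matched transcripts under grazing, and less often between the grazed populations. Their 19 transcripts summed to 238 FPKM in the intolerant grazed pool, 187 in the tolerant grazed pool and 178 in the tolerant ungrazed pool. Of the 18 compared, 3 (16.7%) were higher and 1 lower in the tolerant grazed than in the tolerant ungrazed pool, beside 14.0% and 7.48% of legume-matched transcripts. In the intolerant grazed pool 2 (11.1%) were higher and 1 lower than in the tolerant grazed pool, beside 20.4% and 12.2%. Under median-ratio scaling 1 was higher and 3 lower there, beside 14.6% and 16.2%. The lower one under grazing was Unigene22155_All, at 29.6, 21.6 and 43.3 FPKM, and it is named for ARG2, an auxin-induced protein of mung bean that is not an Aux/IAA repressor. Its log2 ratio of -1.0 came to -0.90 under TPM, below the threshold. Some transcripts with an Aux/IAA orthology carry other names. Among all 17 compared with that orthology, 3 were higher and none lower in tolerant grazed against tolerant ungrazed. In intolerant grazed against tolerant grazed 2 of the 17 were higher and 1 lower. The 4 transcripts of the IAA18 locus MTR_2g100780 summed to 54.8, 38.6 and 30.4 FPKM and none was called. The contigs CL4598.Contig1_All and CL4598.Contig2_All, matched to IAA27, held 27.8 to 34.9 and 26.1 to 31.2 FPKM over the 3 pools.

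The GH3 enzymes, which lower free auxin by joining it to amino acids, split by locus. As a class their 23 transcripts summed to 117 FPKM in the intolerant grazed pool, 88.4 in the tolerant grazed pool and 80.1 in the tolerant ungrazed pool. Of the 20 compared, 5 (25%) were higher and 4 (20%) lower in tolerant grazed against tolerant ungrazed, beside 14.0% and 7.48% of legume-matched transcripts. All 4 lower ones were the 4 transcripts of the locus MTR_5g016320, named GH3.3. Their sums were 6.01 FPKM in the intolerant grazed pool, 3.96 in the tolerant grazed pool and 17.2 in the tolerant ungrazed pool. Their log2 ratios of tolerant grazed against ungrazed ran between -3.09 and -1.73. Both grazed pools were thus low for this locus, on 54, 34 and 146 fragments.

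The locus MTR_2g081860, named GH3.6, had another order. Its 4 transcripts summed to 19.2 FPKM in the intolerant grazed pool, 4.03 in the tolerant grazed pool and 1.21 in the tolerant ungrazed pool, on 146, 31 and 9 fragments. All 3 with enough fragments were higher in the intolerant grazed than in the tolerant grazed pool, with log2 ratios between 1.39 and 3.14. The longer GH3 transcript CL1780.Contig1_All had 17.0, 11.4 and 4.93 FPKM, and its log2 ratio of tolerant grazed against ungrazed was 1.21 (0.93 to 1.5). The GH3.1 match CL5282.Contig1_All had 13.5, 12.0 and 13.8 FPKM and was called in neither comparison. The JAR1 match CL2515.Contig1_All had 8.02, 15.8 and 11.5 FPKM, and its log2 ratio of intolerant grazed against tolerant grazed of -0.98 came to -1.24 under median-ratio scaling and to -1.08 under TPM, past the threshold. Transcripts named conjugate hydrolases, which release auxin again, had none of 10 called in either comparison and sums of 93.3, 87.6 and 94.0 FPKM. The most abundant of them, CL6455.Contig2_All, at 27.01, 30.5 and 33.3 FPKM, is the one whose Swiss-Prot match is delta-aminolevulinic acid dehydratase. CL3038.Contig4_All and Unigene24315_All, both matched to the hydrolase ILR1-like 4, had 11.2, 11.8 and 12.9 FPKM and 13.1, 11.5 and 8.22 FPKM.

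The SAUR transcripts, which are among the fastest to answer auxin and promote cell expansion in Arabidopsis, showed no common direction. Their 30 transcripts summed to 218 FPKM in the intolerant grazed pool, 250 in the tolerant grazed pool and 228 in the tolerant ungrazed pool. In tolerant grazed against tolerant ungrazed 5 (16.7%) were higher and 4 (13.3%) lower, beside 14.0% and 7.48% of legume-matched transcripts. The median was -0.0013, and 0.11 under TPM. In intolerant grazed against tolerant grazed 7 (23.3%) were higher and 2 (6.67%) lower, beside 20.4% and 12.2% of legume-matched transcripts. Under median-ratio scaling 3 were higher and 3 lower in this last comparison. The most abundant, Unigene902_All, had 79.4, 108 and 80.0 FPKM, with a log2 ratio of -0.45 (-0.55 to -0.35) for intolerant grazed against tolerant grazed and of 0.44 (0.34 to 0.54) for tolerant grazed against ungrazed. Unigene11746_All had 9.58, 5.10 and 0.668 FPKM and Unigene11747_All 11.7, 9.28 and 2.73 FPKM, and both were higher in the tolerant grazed than in the ungrazed pool, by 2.93 (1.79 to 4.31) and 1.77 (0.94 to 2.67). Unigene49599_All ran the other way at 5.11, 6.78 and 18.9 FPKM, and CL1810.Contig3_All was low in the intolerant grazed pool, at 2.89, 7.95 and 12.2 FPKM. CL1810.Contig1_All of the same cluster had 11.8, 17.6 and 19.8 FPKM, with a log2 ratio of -0.57 for intolerant grazed against tolerant grazed. A further 13 transcripts with a SAUR orthology carry other names, and among all 41 with that orthology 9 were higher and 5 lower in tolerant grazed against tolerant ungrazed.

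The auxin-repressed proteins, named for a strawberry transcript whose level drops with auxin, were the most abundant class by summed FPKM in all 3 pools. They held 31.1% of the summed FPKM of the auxin transcripts in the intolerant grazed pool, 30.2% in the tolerant grazed pool and 32.4% in the tolerant ungrazed pool, with 7 transcripts summing to 1308, 1387 and 1504 FPKM. These sums lay closer together than the values of single contigs. By fragments the order of the pools was another, at 19067, 15438 and 18622. The log2 ratio of intolerant grazed against tolerant grazed was 0.33 (0.30 to 0.36) by fragments and -0.08 by summed FPKM. CL495.Contig4_All had 348 FPKM in the intolerant grazed pool, 808 in the tolerant grazed pool and 638 in the tolerant ungrazed pool, a log2 ratio of intolerant grazed against tolerant grazed of -1.21 (-1.28 to -1.15). CL495.Contig1_All had 320, 81.6 and 160 FPKM, with a ratio of 1.97 (1.89 to 2.06) in the same comparison. CL495.Contig5_All had 180, 64.9 and 96.7 FPKM, with a ratio of 1.47 (1.38 to 1.57). CL495.Contig2_All had 146, 164 and 209 FPKM and was called in neither comparison.

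Within the cluster CL495 the fragments thus sat on different contigs in the grazed populations. CL495.Contig4_All took 15% of the cluster's fragments (Wilson 95% interval 14.4% to 15.5%) in the intolerant grazed pool, 41.9% (41.1% to 42.8%) in the tolerant grazed pool and 28.7% (28.0% to 29.4%) in the tolerant ungrazed pool. CL495.Contig1_All took 34.6%, 10.6% and 18.1%. All 5 contigs match the locus MTR_2g014240 and share sequence, and how fragments were placed among them was not tested. The sixth transcript of the locus, Unigene17032_All, had 87.9, 100 and 203 FPKM and was lower in the tolerant grazed than in the ungrazed pool, at -1.02 (-1.14 to -0.91), which came to -0.91 under TPM, below the threshold. CL3526.Contig2_All, of the locus MTR_1g083440, was high in the intolerant grazed pool alone, at 77.6, 21.0 and 16.2 FPKM and 1.89 (1.73 to 2.05).

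**Figure D4:**
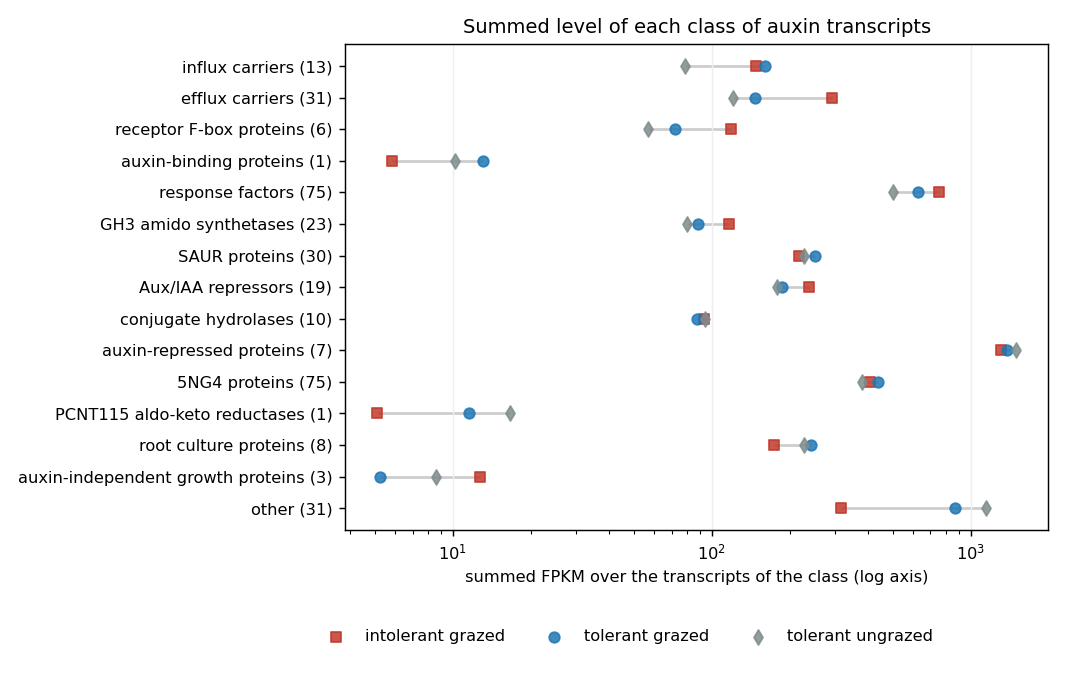
Summed FPKM (log axis) of each class of auxin transcripts, with the number of transcripts in parentheses. Squares are the intolerant grazed pool, circles the tolerant grazed pool and diamonds the tolerant ungrazed pool, 1 library each. Influx carriers are lowest in the tolerant ungrazed pool (79.1) and efflux carriers highest in the intolerant grazed pool (291). The class of other names is lowest in the intolerant grazed pool (315).

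The largest difference in FPKM between the grazed pools was that of CL13466.Contig1_All, named auxin induced proline rich protein and matched in Swiss-Prot to Early nodulin-12, a cell wall protein of the early steps of nodulation. It had 80.4 FPKM in the intolerant grazed pool, 665 in the tolerant grazed pool and 972 in the tolerant ungrazed pool, from 1119, 9396 and 13844 fragments. The intolerant pool was low and both tolerant pools high, with a log2 ratio of intolerant grazed against tolerant grazed of -3.05 (-3.14 to -2.96) and of tolerant grazed against ungrazed of -0.55 (-0.59 to -0.51). This transcript alone made up 1.91% of the summed FPKM of the auxin transcripts in the intolerant grazed pool, 14.5% in the tolerant grazed pool and 21.0% in the tolerant ungrazed pool. The summed root nodule markers were at 1035 FPKM in the intolerant grazed pool, 922 in the tolerant grazed pool and 1896 in the tolerant ungrazed pool. In intolerant grazed against tolerant grazed 10 of 38 were higher and 3 lower, with a median log2 ratio of -0.04 and a log2 ratio of the sums of 0.17. In tolerant grazed against tolerant ungrazed the log2 ratio of the sums was -1.04. Yet 12 of the 38 were higher and 3 lower there, with a median of 0.46, so the sum and the single markers ran in different directions. Their part in the values of this transcript was not tested.

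The remaining transcripts of other names had no common order. CL618.Contig2_All, matched to the Aux/IAA protein IAA4 of pea, had 20.5 FPKM in the intolerant grazed pool, 20.4 in the tolerant grazed pool and 30.5 in the tolerant ungrazed pool, and Unigene24947_All, matched to the auxin-induced protein 22E, had 23.0, 19.0 and 23.3 FPKM. The IAA8 match Unigene440_All was low in the ungrazed pool, at 5.23, 7.63 and 2.06 FPKM, with a log2 ratio of tolerant grazed against ungrazed of 1.89 (1.46 to 2.33). Unigene12033_All, named auxin-regulated protein, was high there instead, at 9.70, 6.91 and 14.2 FPKM, and its ratio of -1.04 (-1.25 to -0.84) came to -0.94 under TPM, below the threshold. CL10207.Contig1_All, matched to the auxin-induced protein 6B of soybean, had 11.9, 3.31 and 1.05 FPKM. It was higher in both comparisons, at 1.85 (1.15 to 2.60) for intolerant grazed against tolerant grazed and 1.66 (0.39 to 3.13) for tolerant grazed against ungrazed.

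Among the transcripts named for auxin-induced genes with other functions, 8 were named for AIR12, a plasma membrane cytochrome found in auxin-treated root cultures of Arabidopsis. In intolerant grazed against tolerant grazed 1 of the 8 was higher and none lower, and 5 had a positive log2 ratio. Their median was 0.13, and -0.14 under median-ratio scaling. The contigs of the cluster CL13045 stood lower in the intolerant grazed pool, short of the threshold in FPKM. CL13045.Contig3_All had 52.3, 90.8 and 103 FPKM in the intolerant grazed, tolerant grazed and tolerant ungrazed pools, and CL13045.Contig2_All had 40.4, 78.6 and 86.8 FPKM. Their log2 ratios of intolerant grazed against tolerant grazed were -0.80 (-0.88 to -0.72) and -0.96 (-1.03 to -0.89), and these came to -1.06 and -1.22 under median-ratio scaling, both past the threshold, and to -0.89 and -1.05 under TPM. Unigene4559_All, of the same family, was instead low in the ungrazed pool, at 62.1, 56.4 and 25.6 FPKM and 1.14 (0.98 to 1.30). The PCNT115 aldo-keto reductase Unigene12366_All was lower in the intolerant grazed than in the tolerant grazed pool, at 5.09, 11.6 and 16.7 FPKM and -1.18 (-1.47 to -0.90). The 3 contigs of CL1005, named for the auxin-independent growth promoter of tobacco, were lowest in the tolerant grazed pool and summed to 12.7, 5.25 and 8.58 FPKM. CL1005.Contig1_All had 3.79, 2.84 and 3.46 FPKM and was called in neither comparison, while CL1005.Contig3_All, at 4.55, 1.77 and 2.58 FPKM, was higher in the intolerant grazed than in the tolerant grazed pool by 1.36 (0.52 to 2.26). CL1005.Contig2_All, at 4.36, 0.639 and 2.53 FPKM, had log2 ratios of 2.77 (1.62 to 4.16) for intolerant grazed against tolerant grazed and -1.99 (-3.43 to -0.76) for tolerant grazed against ungrazed.

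The 75 transcripts named for 5NG4, an auxin-induced membrane protein first described in pine, went in no single direction. They summed to 408 FPKM in the intolerant grazed pool, 438 in the tolerant grazed pool and 382 in the tolerant ungrazed pool. Of the 70 compared, 9 (12.9%) were higher and 7 (10%) lower in tolerant grazed against tolerant ungrazed, beside 14.0% and 7.48% of legume-matched transcripts. In intolerant grazed against tolerant grazed 13 (18.6%) were higher and 9 (12.9%) lower, beside 20.4% and 12.2%. The median of 0.07 in this comparison turned to -0.20 under median-ratio scaling and to -0.03 under TPM. Under median-ratio scaling lower calls outnumbered higher ones. In tolerant grazed against tolerant ungrazed 5 were higher and 8 lower, beside 12.2% and 8.85% of legume-matched transcripts under that scaling. In intolerant grazed against tolerant grazed 10 were higher and 15 lower, beside 14.6% and 16.2%. Under TPM this last comparison had 13 higher and 13 lower. CL4316.Contig2_All was high in the tolerant grazed pool alone, at 12.6, 28.1 and 8.91 FPKM, with log2 ratios of -1.16 (-1.33 to -0.99) for intolerant grazed against tolerant grazed and 1.66 (1.47 to 1.85) for tolerant grazed against ungrazed. CL3165.Contig3_All had the same order at 2.79, 11.7 and 0.544 FPKM. CL11379.Contig1_All was low in the intolerant pool, at 21.1, 49.8 and 48.2 FPKM, and Unigene20699_All high there, at 10.8, 2.92 and 2.46 FPKM. CL6864.Contig2_All, the zinc finger match, had 3.48, 9.47 and 8.26 FPKM, and CL11241.Contig1_All had 4.28, 10.7 and 6.08 FPKM. Both were lower in the intolerant grazed than in the tolerant grazed pool, at -1.45 (-1.78 to -1.12) and -1.33 (-1.80 to -0.87). The abundant CL7385.Contig1_All, at 29.4, 27.7 and 31.1 FPKM, and CL4316.Contig1_All, at 28.0, 25.3 and 15.7 FPKM, were called in neither comparison.

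Genes of the pathway that are not named for auxin were taken from a separate list of names, with 170 transcripts and 152 compared. Of these, 19 (12.5%) were higher and 16 (10.53%) lower in tolerant grazed against tolerant ungrazed, beside 14.0% and 7.48% of the legume-matched transcripts. In intolerant grazed against tolerant grazed 35 (23.0%) were higher and 13 (8.55%) lower, beside 20.4% and 12.2%. The ABC transporters of subfamily B, some of which move auxin, had 17 of 55 higher and 5 lower in intolerant grazed against tolerant grazed and summed to 352 FPKM in the intolerant grazed pool, 248 in the tolerant grazed pool and 233 in the tolerant ungrazed pool. The lateral organ boundary proteins, some of which are ARF targets in root branching in Arabidopsis, had 3 of 32 higher and 10 lower in tolerant grazed against tolerant ungrazed and 12 higher and 5 lower in intolerant grazed against tolerant grazed. Auxin synthesis transcripts had 3 of 13 higher and 1 lower under grazing of the tolerant population, and none was called between the grazed populations. TOPLESS corepressors, which work with Aux/IAA proteins, had 2 of 4 higher in intolerant grazed against tolerant grazed and summed to 18.9, 6.67 and 5.64 FPKM.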

How the data were processed

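RNA of 3 pools was sequenced, 1 library per group, and groups follow the labels. The authors assembled the reads de novo with Trinity and TGICL, aligned them back to the transcripts and deposited the count of fragments aligned uniquely to each transcript, not normalized. The authors also deposited FPKM, that count per kilobase of transcript and scaled to all aligned fragments, with annotations by similarity search. The ratio of FPKM was taken on the log2 scale with 0.01 in place of 0, for transcripts with at least 20 fragments over the 3 libraries and a threshold of 1. Values of at most 3 fragments are at the floor. Unique counting may split or lose fragments among contigs of a cluster. Transcripts were sorted into classes by their names. Named are the 3 most abundant of each class, all of a class of at most 5, and in each of the 2 comparisons the 10 highest and 10 lowest called ratios with at least 90 fragments and an interval without 0, and any others were chosen with their values known. Members and lists were chosen with earlier results of these data known. Python 3.11.15, pandas 2.3.3 and SciPy 1.17.1 were used, checked on simulated data. Alternatives numbered 44, with 2 added after the data were seen. Sequences were not used here.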

Additional observations from a re-analysis of the deposited data

How the results depend on the processing

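With 1 pool per group no result has a replicate check, and intervals cover counting error only. The counts of called auxin transcripts moved as follows, given as higher then lower. In tolerant grazed against tolerant ungrazed (65 and 23) they were 29 and 14 with 1 added to every FPKM, 32 and 5 with a minimum of 100 fragments, 15 and 6 at an absolute log2 ratio of 2, 31 and 13 when an adjusted Poisson p of at most 0.001 (which compares the libraries, not the conditions) was also asked, and 29 and 9 with a length of at least 500 bases. The median of 0.36 was 0.47 under TPM. In intolerant grazed against tolerant grazed (63 and 26) 35 were higher with 1 FPKM added, 27 and 13 with 100 fragments, 11 and 10 at a ratio of 2, 37 higher with the Poisson test, 28 and 12 with 500 bases, and 42 lower under median-ratio scaling, where the median of 0.27 was 0.0089. The transcripts of other names had a log2 ratio of summed FPKM of -1.47 for intolerant grazed against tolerant grazed, and of 0.18 without CL13466.Contig1_All, an alternative chosen after the data were seen. Counts with 0.1 FPKM added, with contigs of a cluster summed, with a legume name in the protein match alone, with no minimum of fragments, or with intervals that leave out 0 stayed within 1.5 times. No paired analysis was possible because each group has 1 library.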

Other observations

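The called auxin transcripts were shorter and had fewer fragments than the others. In tolerant grazed against tolerant ungrazed 50 of the 88 called (56.8%) were under 500 bases, against 31.1% of the 228 not called, and the median of fragments over the 3 pools was 68.5 for the called and 307.5 for the others. In intolerant grazed against tolerant grazed 49 of the 89 called (55.1%) were under 500 bases, against 31.7% of the 227 not called, with medians of 82 and 253 fragments. The lowest levels were most frequent in the ungrazed pool, with 21 of the 333 transcripts under 1 FPKM in the intolerant grazed pool, 41 in the tolerant grazed pool and 57 in the tolerant ungrazed pool.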
